A study of Triticum aestivum with 20 samples.

Results

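Switched runs are stretches of the wheat genome that were activated chromatin in vernalized leaf and repressed chromatin in leaf. They were chosen by the measured values themselves. The 2 deposited maps of chromatin states were compared in bins of 200 bp, and every uninterrupted run of at least 600 bp was kept that was in state E1, E2, E6 or E7 in vernalized leaf and in state E5 in leaf. There were 2803 such runs with 2.53 Mb in all, out of 597 Mb of E5 in leaf and a genome of 14066 Mb on 21 chromosomes. As deposited, the maps held 1833172 segments in vernalized leaf and 1603362 in leaf.

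Vernalized leaf came from plants of the winter bread wheat cultivar AK58 that had been raised in a greenhouse, kept in a cold chamber for about a month and returned to the greenhouse for a day. Leaf came from younger plants of the same cultivar that had never been in the cold chamber. Age, cold and the return to warmth thus differed between the conditions together with vernalization and cannot be told apart. Each condition had 10 ChIP-seq libraries, 2 for each of the 4 histone marks H3K4me3, H3K36me3, H3K27ac and H3K27me3 and 2 inputs. The libraries were joined with chromatin accessibility into 1 map per condition, so that no spread between plants could be computed and no test between the conditions was made. Leaves are a mixture of cell types, and a bin that changed state in every cell cannot be told apart from one that did so in some cells or from a change in the makeup of the tissue.

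H3K27me3 is laid down by Polycomb repressive complex 2 and is found over genes that are kept silent in a given tissue or stage. H3K4me3 and H3K27ac mark the start regions of active genes, and H3K36me3 is deposited along the body of genes as they are transcribed. Open chromatin is read with a transposase that inserts into DNA free of nucleosomes. Vernalization, the long cold that lets winter cereals flower, is known from Arabidopsis and cereals as a process in which H3K27me3 is gained at some genes and lost at others.

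In the study's state panel, E5 carries H3K27me3 alone. Among the activated states, E1 combines accessibility with H3K4me3, H3K27ac and H3K36me3, E2 is mainly H3K36me3, E6 is strongly accessible with weak H3K27ac, and E7 is accessible with none of the 4 marks. E3, E4 and E8 join H3K27me3 to active marks or accessibility and are called mixed, and E9 is unmodified. A state number was read by its place in that panel, and no signal was at hand with which to check it.

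Of the 2985151 bins that were E5 in leaf, 0.766% were activated in vernalized leaf at any run length and 0.423% lay in switched runs. The rule used this contrast, and the shares only give the scale. Runs of any length numbered 10490 with 4.57 Mb. The 2803 runs of at least 600 bp were 26.7% of them and held 55.3% of their bases. Just inside the limit lay 1228 runs of exactly 600 bp, and just outside it lay 2543 runs of 400 bp. E2, the most common state in both, covered 59.1% of the bases in runs of 600 bp and 59.9% in runs of 400 bp. The 5144 runs of 200 bp differed, with E2 over 45.2% and E7 over 43.8% of their bases. E7 covered 27.1% in runs of 600 bp and 28.9% in runs of 400 bp. Activated chromatin of leaf lay beside 8.39% of the runs of 600 bp and 7.67% of those of 400 bp.

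Most switched runs were short. The median was 800 bp, the quartiles were 600 and 1000 bp, and the mean was 902 bp with a standard deviation of 510 bp over the 2803 runs. Runs of 600 bp made up 43.8%, runs of 800 bp 23.7% (665 runs) and runs of 1000 bp 12.7% (356 runs). A length of at least 2000 bp was reached by 100 runs, which held 10.9% of the switched bases. At least 4000 bp was reached by 9 runs, and the longest run had 9600 bp.

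**Figure D1:**
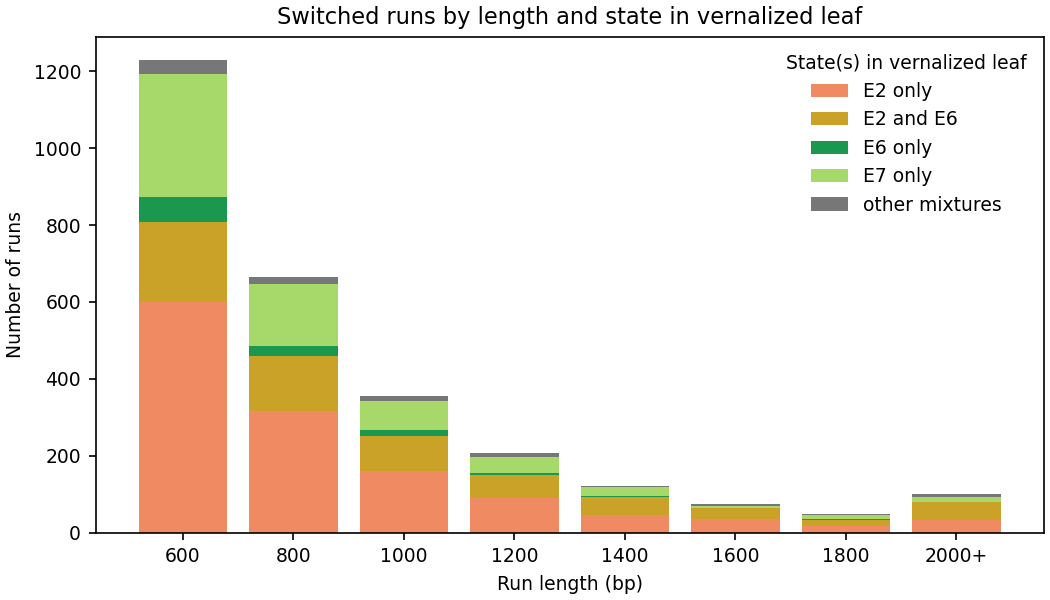
Number of switched runs (vertical axis) by run length in bp (horizontal axis, all runs of 2000 bp or more in the last bar), coloured by the state or states the run had in vernalized leaf. The 1228 runs of 600 bp form the tallest bar, and the bar of 2000 bp or more holds 100 runs.

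E2, the state of H3K36me3, covered 62.3% of the switched bases in vernalized leaf, or 1574 kb. Its share of all activated chromatin of vernalized leaf was higher, with 69.8%. E7, open chromatin without the 4 marks, covered 22.2% (560 kb), and E6, open chromatin with weak H3K27ac, covered 14.9% (376 kb). E1, in which all active marks and accessibility stand together, covered 0.696% (17.6 kb) and occurred in 44 runs.

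Taken run by run, 1300 runs (46.4%) were wholly E2, 649 (23.2%) wholly E7 and 119 (4.25%) wholly E6, while no run was wholly E1. A further 640 runs (22.8%) were made of E2 and E6 together, and 95 runs (3.39%) held any other mixture. Within the runs of E2 and E6 the order E6-E2 along the chromosome was found 235 times and E2-E6 206 times. E6 lay inside E2 (E2-E6-E2) in 117 runs, and E2 lay inside E6 (E6-E2-E6) in 41 runs. E7 shared a run with another state in 59 runs, and with E2 in 22 of them. H3K36me3 and bare accessibility were thus mostly the states of separate runs, and E6 was mostly found together with E2.

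The state in vernalized leaf was set beside that of other bases that were activated there. Runs of at least 600 bp that were activated in vernalized leaf and mixed in leaf numbered 3411, and E1 covered 16.01% of their bases. Runs activated in vernalized leaf and unmodified in leaf numbered 70158, and E1 covered 0.516% of them. Among all bases that were activated in both conditions, E1 covered 9.97%. E2 covered 62.3% of the switched bases, against 57.6% where leaf was mixed, 51.4% where leaf was unmodified and 79.2% where leaf was activated. E7 covered 22.2% of the switched bases, against 6.68% where leaf was mixed, 42.9% where leaf was unmodified and 4.06% where leaf was activated. E6 covered 14.9% of the switched bases, against 19.7%, 5.18% and 6.73% of the same 3 sets. The E1 share of the switched runs was thus close to that of bases that were unmodified in leaf, with less E7 and more E2 and E6 than in these. These shares are descriptions of 1 map and were not tested.

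**Figure D2:**
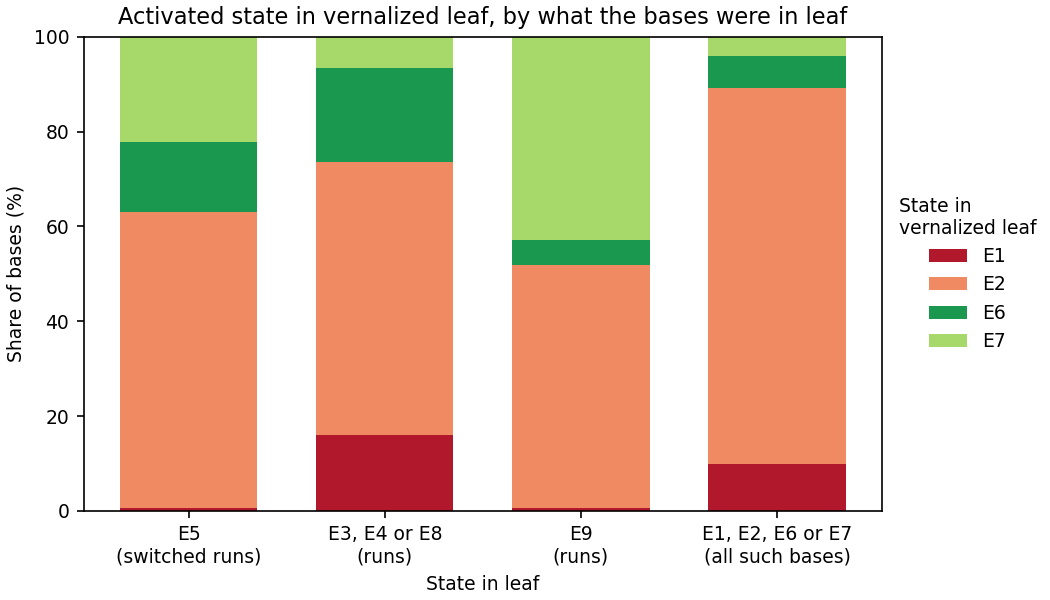
Share of bases in each activated state of vernalized leaf (vertical axis, %) by the state of the same bases in leaf (horizontal axis), with runs of at least 600 bp in the first 3 bars and all bases in the last. E1 takes 0.696% of the switched runs and 16.01% of the runs that were mixed in leaf, and E7 takes 22.2% and 6.68% of them.

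The state varied with the length of the run. In the 100 runs of at least 2000 bp, E2 covered 69.8% of the bases, E6 17.2%, E7 11.1% and E1 1.97%. The E1 share was 0.831% without the longest run, which was left out after its values were seen. In the 810 runs of 1000 to 1800 bp, E2 covered 63.1%, E6 16.3%, E7 19.9% and E1 0.772%. In the 1893 runs of 600 and 800 bp, E2 covered 60.0%, E6 13.3%, E7 26.3% and E1 0.363%. Longer runs were richer in E2 and poorer in E7. Runs of E6 alone had a mean of 775 bp, runs of E7 alone 822 bp, runs of E2 alone 869 bp and runs of E2 with E6 1037 bp, while the runs of other mixtures had 1141 bp. A length of at least 1000 bp was reached by 22.7% of the runs of E6 alone, 25.7% of those of E7 alone, 29.5% of those of E2 alone, 44.2% of those of other mixtures and 45.3% of those of E2 with E6.

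Each run has 2 sides, which gave 5606 sides. In vernalized leaf the bin next to the run was unmodified on 3568 sides (63.6%), activated on 1676 (29.9%), mixed on 292 (5.21%) and E5 on 70 (1.25%). In leaf it was E5 on 3426 sides (61.1%), mixed on 1054 (18.8%), unmodified on 903 (16.1%) and activated on 223 (3.98%). A switched run thus mostly met unmodified chromatin in vernalized leaf and E5 in leaf. The rule bears on these shares, since a run ends where either map changes, and a side that was E5 in leaf cannot be activated in vernalized leaf.

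The most common side, with 3144 of 5606 (56.1%), was unmodified in vernalized leaf and E5 in leaf. The next was activated in vernalized leaf and mixed in leaf, with 901 sides (16.1%), followed by activated in vernalized leaf and unmodified in leaf with 578 (10.3%). Sides activated in both conditions numbered 197 (3.51%). Where the bin next to the run was activated in vernalized leaf, it had therefore mostly been mixed or unmodified in leaf. This holds for the adjoining bin only, and bases farther along the activated stretch are described below. Among the single states, the mixed sides of leaf were E8 (516 sides, accessible with H3K27me3) and E4 (448 sides, strong H3K27me3 with weak H3K27ac) and less often E3 (90 sides). The pair of E6 in vernalized leaf and E8 in leaf, both accessible states, was found on 248 sides, and the pair of E2 and E4 on 245 sides. Activated sides of leaf were E2 (115), E7 (90) and E1 (18), with 0 in E6.

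Counted by run, 1420 runs (50.7%) had activated chromatin of vernalized leaf on at least 1 side and 256 (9.13%) on both sides. In leaf, activated chromatin lay on at least 1 side of 215 runs (7.67%), mixed chromatin of 951 runs (33.9%) and E5 of 2418 runs (86.3%). The share beside activated chromatin of leaf was 29.998% when mixed states of leaf were counted as repressed, and 0% by construction when bins at the borders of E5 were left out. Both sides were unmodified in vernalized leaf for 1197 runs (42.7%), and both were E5 in leaf for 1008 runs (35.96%). The kinds of run differed in how often they lay beside mixed chromatin. Mixed chromatin of leaf lay beside 53.7% of the runs of other mixtures, 48.7% of the runs of E6 alone and 42.5% of those of E2 with E6, against 33.1% of those of E2 alone and 21.6% of those of E7 alone. E8 of leaf was beside 34.5% of the runs of E6 alone and 12.2% of the runs of E2 alone.

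E5 of leaf that stayed E5 in vernalized leaf was rare right beside a switched run. Of the 3426 sides that were E5 in leaf, 67 (1.96%) were still E5 in vernalized leaf, 215 (6.28%) were mixed and 3144 (91.8%) were unmodified. For comparison, 95991 runs of at least 600 bp were unmodified in vernalized leaf and E5 in leaf, and are called loss runs here. Of their 87289 sides that were E5 in leaf, 72924 (83.5%) were still E5 in vernalized leaf. By definition, a side that was E5 in leaf cannot be unmodified in vernalized leaf beside a loss run, nor activated beside a switched run. The 2 shares are thus not drawn from the same choices, and their difference was not tested.

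The unmodified stretch of vernalized leaf that began on those 3144 sides had a median of 1600 bp, with quartiles of 800 and 5400 bp. It ended inside the E5 segment of leaf on 1302 sides (41.4%), after a median of 800 bp, and reached or passed the segment's border on the others. Where it ended inside, it met E5 on 762 sides (58.5%), activated chromatin on 417 (32.0%) and mixed chromatin on 123 (9.45%).

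Farther out, the share of activated bins was higher around switched runs than around loss runs in both conditions. In the first kb outside a switched run, 24.7% of bins were activated in vernalized leaf and 7.34% in leaf, and around loss runs these shares were 4.68% and 2.503%. Between 10 and 20 kb they were 8.32% in vernalized leaf and 7.66% in leaf around switched runs, and 4.79% and 4.77% around loss runs. Switched runs were chosen as activated and loss runs as unmodified in vernalized leaf, so the rule bears on these values near the runs. Within the first kb outside a switched run, E5 took 5.91% of bins in vernalized leaf and 53.2% in leaf. Between 10 and 20 kb it took 11.7% and 17.9%. Around loss runs E5 took 35.9% and 43.8% within the first kb, and 16.9% and 21.1% between 10 and 20 kb. The differences were not tested. In leaf the activated share around switched runs was highest a short way out, with 11.5% between 1 and 5 kb and 10.2% between 5 and 10 kb. The nearest activated base of leaf lay at a median of 3000 bp from a switched run and 15200 bp from a loss run, and within 5 kb for 59.7% of switched runs and 33.9% of loss runs. More than 20 kb from any activated base of leaf lay 21.3% of the switched runs.

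**Figure D3:**
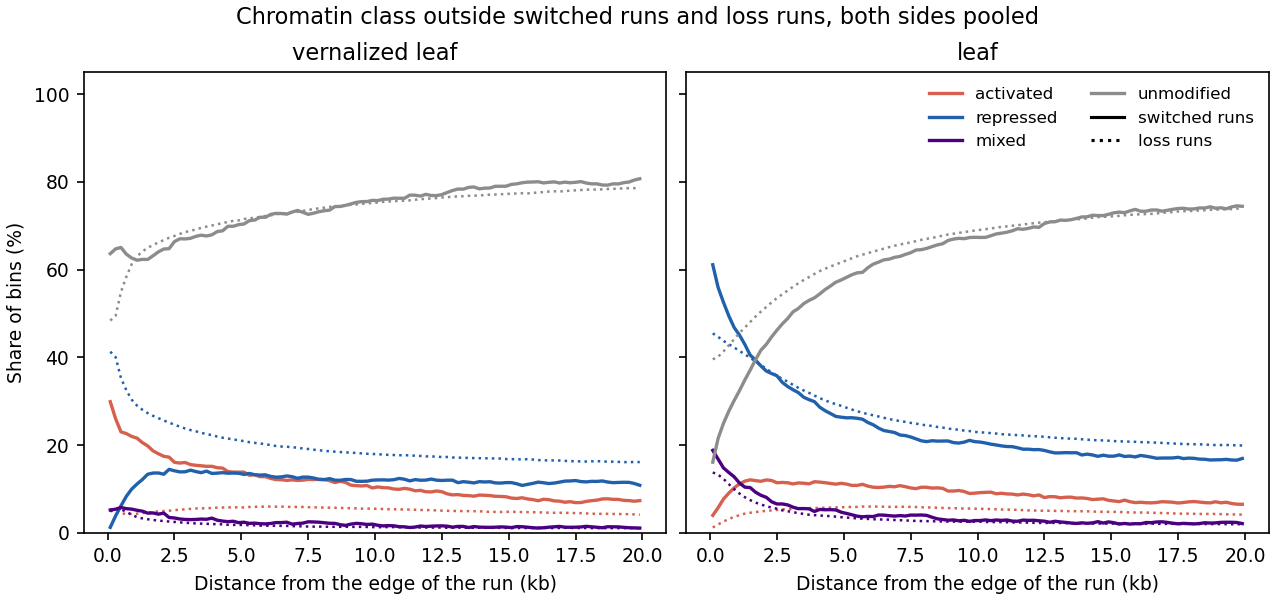
Share of 200 bp bins (vertical axis, %) in each chromatin class by distance from the edge of the run in kb (horizontal axis), both sides pooled, in vernalized leaf and in leaf, for 2803 switched runs (solid lines) and 95991 loss runs (dotted lines). Next to switched runs the E5 line is near 0 in vernalized leaf, with 1.25% of the adjoining bins, and high in leaf, with 61.1%.

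The 2803 runs lay in 2708 uninterrupted E5 segments of leaf, of which 89 held more than 1 run and none more than 3. These segments had a median of 2400 bp, the same as all 133071 E5 segments of leaf that were long enough to hold a run, and the longest had 55600 bp. They made up 2.04% of the segments of that length. The run took the whole E5 segment in 385 cases (13.7%), reached 1 border of it in 1410 (50.3%) and lay inside it in 1008 (35.96%). A run that began or ended at a border of the repressed segment was the most common case. Among loss runs 50.2% also reached 1 border, while 29.4% took the whole segment and 20.4% lay inside it. Runs of E7 alone lay inside the segment in 46.2% of cases and took the whole of it in 8.01%, and runs of E2 alone did so in 34.6% and 14.6%. Of the runs of at least 2000 bp, 26.0% took the whole segment.

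The rest of these segments also changed. Outside the switched runs they held 7.46 Mb, of which 62.6% was unmodified in vernalized leaf, 32.3% still E5, 3.81% mixed and 1.24% activated in shorter runs. In E5 of leaf outside these segments, 28.5% was unmodified in vernalized leaf and 69.3% still E5. Of the 2708 segments, 1758 (64.9%) had no base of E5 left in vernalized leaf, against 26.6% of all E5 segments of at least 600 bp. The rule chose these segments for a change in part of their length, and no test was made.

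Seen from vernalized leaf, the runs lay in 2724 uninterrupted stretches of activated chromatin with a median of 1000 bp and a maximum of 26400 bp. Of their 4.65 Mb, 55.7% had been E5 in leaf, 20.7% activated, 12.9% mixed and 10.7% unmodified. No activated base of leaf was found in 2190 of the stretches (80.4%), and 1383 (50.8%) were E5 of leaf from end to end. The stretch around the run held no activated base of leaf for 89.5% of the runs of E7 alone, 77.0% of those of E2 alone and 63.0% of those of E6 alone.

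The opposite change was smaller in extent. Runs of at least 600 bp that were E5 in vernalized leaf and activated in leaf numbered 1074 and held 0.832 Mb, with a mean of 775 bp and a maximum of 2800 bp. In leaf, E2 had covered 76.7% of these reverse runs, E7 14.0%, E1 5.48% and E6 3.84%. Activated chromatin of leaf lay beside 65.8% of the reverse runs and 7.67% of the switched runs, but a reverse run that ends inside a stretch of activated chromatin of leaf has such a side by its definition, so that the 2 shares are not drawn from the same choices. A reverse run lay within 10 kb of 18 switched runs and within 100 kb of 87 (3.10%).

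The 10 longest switched runs, with ties given to the first in chromosome order, were between 3800 and 9600 bp long and lay on chromosomes 2A, 2D, 3B, 3D, 4A, 5D, 7A and 7D. E2 was present in all 10 and the only state in 5 of them, and E7 was absent. The last place was tied among 4 runs of 3800 bp, so these counts depend on the rule for ties. Of the 4 tied runs, 1 was E2 alone, 1 E2 with E6, 1 E7 alone and 1 another mixture. The positions are given on IWGSC RefSeq v1.0, counted from 1, and the genes there were not analysed here.

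The longest run lay on chromosome 3B from 802754201 to 802763800. Its 9600 bp were E2 around an inner stretch of 3200 bp of E1. On the left it was cut off by E4 and on the right E2 continued over chromatin that had been E3 in leaf. The E2 run of 6800 bp from 802746601 to 802753400 lay on the other side of that E4, and both came from a single E5 segment of 17200 bp, of which 16400 bp were activated and 800 bp mixed in vernalized leaf.

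The second longest run, on chromosome 2A from 59719001 to 59726000, was a fine alternation of E2 and E6 with 2 short pieces of E1. E6 covered 48.6% of its 7000 bp and E2 45.7%. It lay at the edge of an E5 segment of 8600 bp, of which 800 bp stayed E5. A different pattern was seen on chromosome 2A from 755438601 to 755444000, where an E5 segment of 5400 bp was replaced by E2 from end to end.

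The run of 5400 bp on chromosome 4A from 625268401 to 625273800 was also a whole E5 segment, with E2 over 63.0% and E6 over 37.0% of it. It was part of an activated stretch of 10600 bp in vernalized leaf, of which 9200 bp had been E5, 1000 bp mixed and 400 bp unmodified in leaf. On chromosome 7A, from 617916001 to 617920800, a whole E5 segment of 4800 bp was E2 (58.3%) and E6 (41.7%) in vernalized leaf, between sides that were unmodified in leaf. On chromosome 5D a run of 4800 bp from 339363601 to 339368400 was wholly E2.

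The other 3 of the 10 lay on the D sub-genome. The run of 4200 bp on 3D from 553742001 to 553746200 was E2 over 81.0% and E6 over 19.05%, and lay beside E1 of leaf on the left. The run of 4000 bp on 7D from 593905801 to 593909800 was wholly E2 inside an E5 segment of 7000 bp, of which 2200 bp were unmodified and 800 bp still E5 in vernalized leaf. The run of 3800 bp on 2D from 490125601 to 490129400 was wholly E2 at the border of an E5 segment of 10400 bp, of which 4200 bp stayed E5. The longest run of E7 alone also had 3800 bp, on chromosome 6B from 22092401 to 22096200, in an E5 segment of 17200 bp that was mixed over 7400 bp in vernalized leaf. The longest run of E6 alone had 1800 bp, on 3A from 727993201 to 727995000, and took a whole E5 segment.

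Runs within 10 kb of each other were joined into loci, which gave 2521 loci. Of these, 2301 held 1 run and 220 held at least 2, and the 220 held 502 runs (17.9%) and 20.1% of the switched bases. There were 176 loci of 2 runs, 32 of 3, 8 of 4, 2 of 5 and 2 of 6. Most runs thus stood alone. The number of loci of at least 2 runs lay between 51 and 573 under the other length limits and state classes. The loci of at least 2 runs had a median span of 4600 bp, with 80 on the A, 73 on the B and 67 on the D sub-genome. E6 covered 22.0% of the switched bases in loci of at least 2 runs and 13.1% in loci of 1 run, and E7 13.3% and 24.4%. The median distance between neighbouring runs on a chromosome was 1132 kb, and 155 of 2782 such distances were at most 2 kb. Among reverse runs, 35 of 1037 loci held at least 2 runs, with 6.70% of the reverse runs. In such loci also lay 67.9% of the loss runs. The shares were 38.3% for runs activated from unmodified chromatin and 11.4% for those from mixed chromatin. These sets differ in their number of runs, and the shares were not tested.

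The locus with most switched bases was that on chromosome 3B, from 802746601 to 802763800, where 16400 of 17200 bp were switched. The second, on 4A from 625257801 to 625281600, held 5 runs with 12600 bp, of which E2 made up 49.2%, E6 38.1%, and E1 and E7 6.35% each. Across its 23800 bp, 16000 bp were activated in vernalized leaf and 1800 bp in leaf, while E5 was found on 0 bp in vernalized leaf and 15400 bp in leaf. The third, on 5D from 543798401 to 543825200, held 6 runs with 10200 bp, of which 82.4% was E2, and E5 there covered 600 bp in vernalized leaf and 22400 bp in leaf. E5 was thus nearly gone from the spans of these 3 loci in vernalized leaf. The fourth, on 1D from 391235601 to 391260200, held 5 runs with 7600 bp in a span where E5 covered 200 bp in vernalized leaf and 19600 bp in leaf. In these last 2 loci much of the span between the runs was unmodified in vernalized leaf, with 12000 and 10800 bp.

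**Figure D4:**
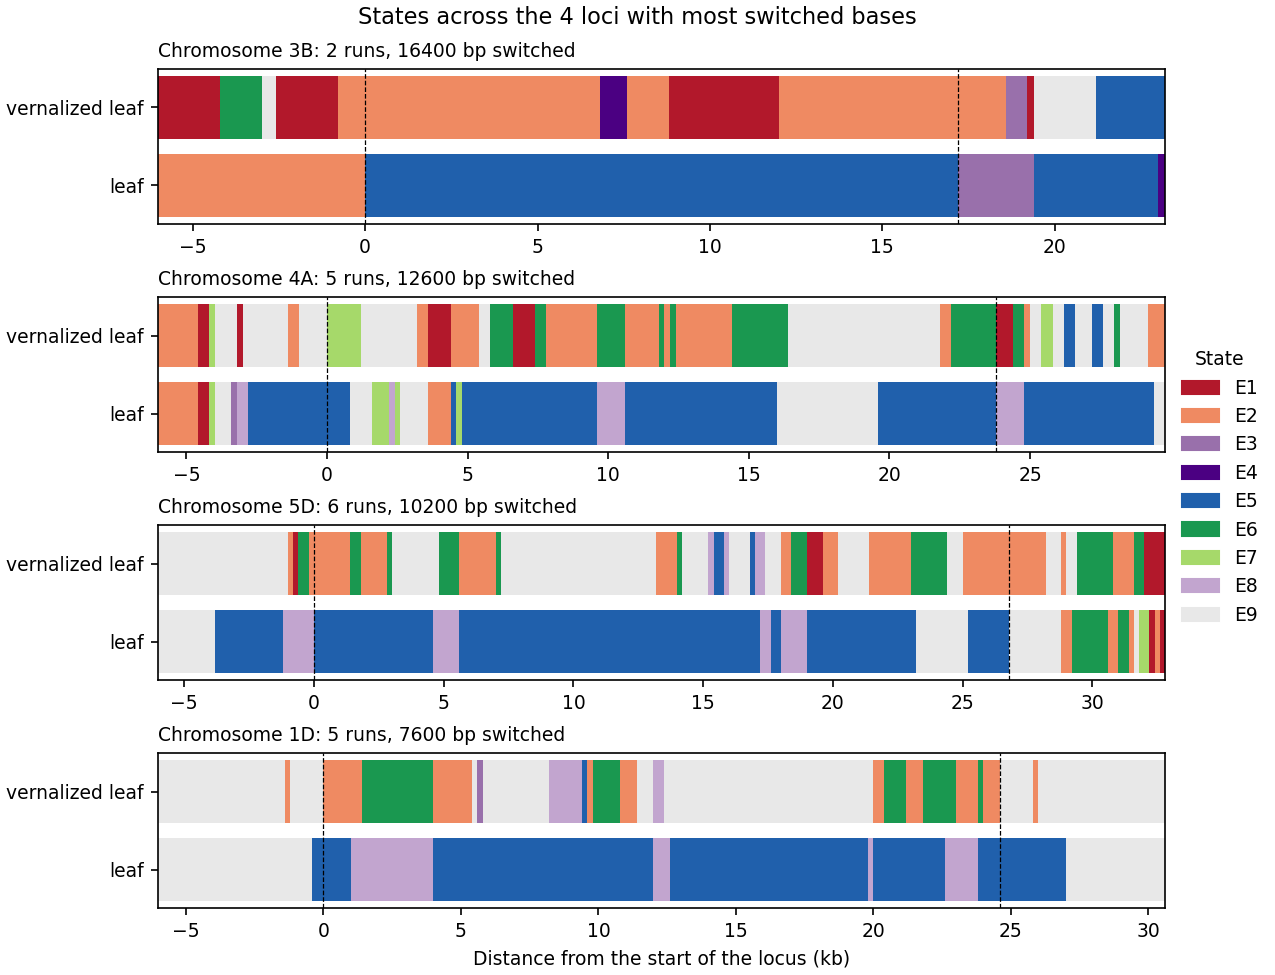
Chromatin states of vernalized leaf (upper bar) and leaf (lower bar) across the 4 loci with most switched bases, by distance in kb from the start of the locus, with dashed lines at its ends and colours for the 9 states. At the 3B locus 16400 of 17200 bp changed to E2 or E1 as a nearly closed block, and at the 5D and 1D loci the runs stood apart, with unmodified stretches between them.

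The other 6 of the 10 loci held between 5400 and 7000 switched bp. A locus on 6A from 50347401 to 50356800 had 3 runs with 6800 bp, all in E2. A locus on 5D from 543768801 to 543779000 had 4 runs with 6400 bp, of which E2 made up 46.9% and E6 43.8%. The locus on 2B from 769262401 to 769274000 had 4 runs with 6000 bp, and 2600 bp of its span stayed E5 in vernalized leaf, the most among the 10. The locus on 6D from 25805201 to 25813000 had 3 runs with 5600 bp. The remaining 2 were the single runs on 2A named above. The second of them shared its 5400 bp with another locus and was taken as the first in chromosome order. E2 was the state with most switched bases in 9 of the 10 loci, the exception being the first of the 2A runs with more E6. No base of the span was activated in leaf in 9 of the 10, the exception being the 4A locus.

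The 5D loci lay close together. When runs within 50 kb were joined, 11 runs with 18600 switched bp fell into a span of 94800 bp on 5D, from 543768801 to 543863600. On 4A, 11 runs with 21200 bp fell into a span of 116800 bp from 625257801 to 625374600, which then held more switched bases than the 3B locus with 17600 bp in 3 runs. The highest number of runs in a locus at that distance was 11.

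Over fixed windows of 100 kb, 2418 of 140672 windows (1.72%) held a switched base, with a median of 800 bp among these. At least 2000 bp were found in 207 windows and at least 4000 bp in 33. The highest value was 17600 bp on 3B from 802700001 to 802800000, which was 30.3% of the E5 of leaf in that window. The next was 12600 bp on 4A from 625200001 to 625300000, or 52.1% of the E5 there, and E5 in that window covered 2000 bp in vernalized leaf and 24200 bp in leaf. The other 3 were 10600 bp on 5D from 543800001 to 543900000, 8600 bp on 4A from 625300001 to 625400000 and 8400 bp on 2A from 59700001 to 59800000, between 20.98% and 22.65% of the E5 of leaf. In each of the 5 windows activated chromatin was longer in vernalized leaf than in leaf, with 39400 and 25400 bp in the first 4A window and 11000 and 800 bp in the 2A window. The windows were chosen for their switched bases, so this direction largely follows from the choice.

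Switched runs were most numerous near the chromosome ends, as E5 itself was. The outer 10% at both ends held 1686 runs (60.1%) and 60.4% of the switched bases, and 74.1% of all E5 of leaf. Per base of E5, switching was therefore less frequent there than in the inner part of the chromosomes, with 0.345% against 0.647% of E5 bases. Counted by run, 60.3% of the loss runs lay in the outer 10% as well, and their share per base of E5 was not computed. Across 20 equal blocks of chromosome length, the first block had 390 runs and a share of 0.227% of its E5, and the last had 573 runs and 0.392%. The highest share was 1.38% in block 12, just past the middle, where 40 runs lay in 2.90 Mb of E5, and blocks 7 to 10 held only 5 to 8 runs each. The block with most runs was thus not the block with the highest share. Runs of the outer 10% were E7 over 25.5% and E2 over 58.5% of their bases, and inner runs were E7 over 17.0% and E2 over 68.0%.

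**Figure D5:**
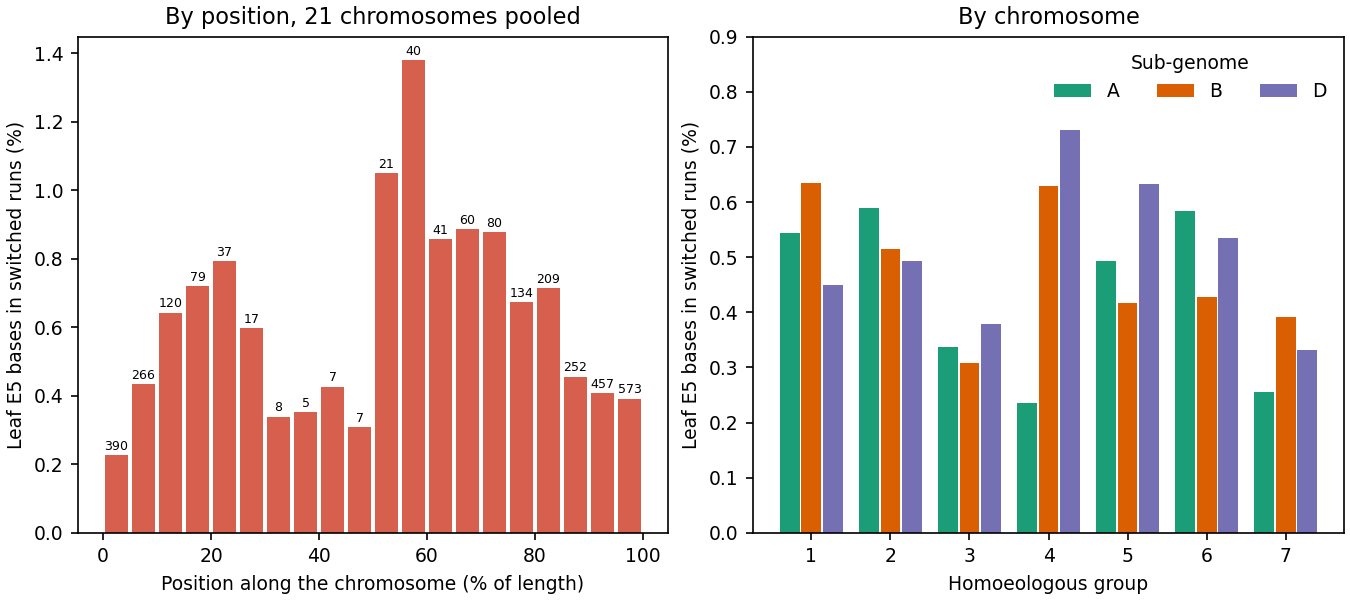
Share of E5 bases of leaf that lay in switched runs (vertical axes, %) by position along the chromosome in 20 blocks, with the number of runs above each bar, and by homoeologous group and sub-genome. The share was 0.227% and 0.392% in the blocks at the chromosome ends and 1.38% in block 12, and it lay between 0.235% on 4A and 0.730% on 4D.

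The share also differed with the length of the E5 segment. It was 1.496% of bases in segments of 600 and 800 bp, 0.711% in those from 2000 to below 5000 bp and 0.0286% in those of at least 20000 bp. Counted by segment, 1.596%, 2.29% and 0.705% of the segments in these length classes held a switched run.

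By sub-genome, 801 runs with 717 kb lay on A, 1027 with 934 kb on B and 975 with 877 kb on D. As a share of the E5 of leaf these were 0.379%, 0.429% and 0.460%, next to 0.423% over the whole genome. Over the 7 chromosomes of each sub-genome the share averaged 0.434 ± 0.154% on A, 0.475 ± 0.124% on B and 0.507 ± 0.140% on D (SD, n = 7 chromosomes). The ranges overlapped, and D was higher than A in 4 of 7 homoeologous groups and higher than B in 4 of 7. Per Mb of chromosome, by contrast, D had more switched bases than A and than B in 7 of 7 groups. The smallest difference was 0.442 bp per Mb from A and 1.33 bp per Mb from B, which are near ties. Over the sub-genomes there were 222 bp per Mb on D, 180 on B and 145 on A. Values per Mb also depend on how much E5 a chromosome holds. E5 of leaf covered 191 Mb on D, 218 Mb on B and 189 Mb on A. These are totals that take no account of chromosome length, and the D chromosome was the shortest in every homoeologous group. Chromosomes are not replicates, and the order of the sub-genomes was not tested.

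Among chromosomes, the share of E5 of leaf that switched was highest on 4D (0.730%) and lowest on 4A (0.235%), although the second largest locus lay on 4A. The E5 of leaf differed between them, with 10.3 Mb on 4D and 46.4 Mb on 4A. Switched bases came to 75 kb on 4D and 109.2 kb on 4A, and per Mb of chromosome to 147.1 and 146.7 bp. The share of switched bases in E2 was highest on 7A (68.5%) and lowest on 4B (51.2%). The share in E7 was highest on 6B (35.0%) and lowest on 3D (13.7%), that in E6 highest on 6D (20.3%) and lowest on 1A (8.51%), and that in E1 highest on 3B (2.96%) with 0 on 4B, 4D, 7A and 7D. Of the 5 kb of E1 on 3B, 3200 bp came from the longest run, without which the share there was 1.13%, below that of 4A (1.65%). Switched bases outnumbered reverse bases on every one of the 21 chromosomes, by 1.54 times on 5A, the lowest, to 5.11 times on 7B, the highest. These are ratios of bases, not of shares of the E5 and activated chromatin that leaf held. The B sub-genome had fewer reverse runs (310) than A (388) and D (376).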

How the data were processed

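ChIP-seq reads of leaf and vernalized leaf were trimmed with fastp 0.21.0 and aligned with Bowtie2 2.3.5.1, versions as given in the submitters' processing notes, to IWGSC RefSeq v1.0, filtered with SAMtools and freed of duplicates with Picard. The authors gave the peaks of the 4 marks and of accessibility to ChromHMM, a hidden Markov model, and deposited 1 file of state labels (E1 to E9) per condition, with no count, signal or score. How replicates were combined is not given in the sources used here, and a condition with weaker peaks would have more bins without a mark. Whether the same number has the same definition in both conditions could not be checked.

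Segments were painted into 200 bp bins after a check that they cover every chromosome without gap or overlap. Columns that could not be assigned to a condition numbered 0. E1, E2, E6 and E7 were taken as activated, E5 as repressed, E3, E4 and E8 as mixed and E9 as unmodified. Runs within 10 kb formed a locus, and 100 kb windows were fixed from the chromosome start. Named are the 10 longest runs, the longest run of each single state, the 10 loci and 5 windows with most switched bases and the chromosomes with extreme shares. The runs, lists and rules were chosen with earlier results of these data known. Run finding was tested on simulated maps with planted runs. Alternatives changed the length limit, the state classes, the joining of runs and the borders. Depth is unknown, so no interval is given for a share. A 95% binomial interval over runs or bins, which are not independent, served only to sort the recomputed shares, and gene models and sequences of this build were not used here. Python 3.11.15, numpy 2.4.6, pandas 2.3.3, scipy 1.17.1 and matplotlib 3.10.9 were used.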

Additional observations from a re-analysis of the deposited data

How the results depend on the processing

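Each condition has 1 map of states, so no result had a test, and a depth limit could not be set because the maps hold no reads. Equal numbers of states in both conditions, the joining of replicates and differences in peak strength between conditions were not tested. No paired analysis was possible because the replicates of a condition were joined into 1 map before deposit.

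The counts depended on the length limit and the state classes. With a minimum of 400 bp there were 5346 runs and 563 loci of at least 2 runs, and with 1000 bp there were 910 runs and 51 such loci, with E2 over 64.5% of the switched bases. Without E7 among the activated states, E2 covered 80.3%, and without E6 and E7 there were 1620 runs and 104 such loci, with E2 over 99.2%. With the mixed states of leaf counted as repressed there were 6377 runs and 573 such loci, E2 covered 59.3%, and activated chromatin of leaf lay beside 29.998% of the runs. With the bins at the borders of leaf E5 segments left out, there were 123 such loci and activated chromatin of leaf lay beside 0% of the runs, which follows from the removal of the borders. Joining runs that were 1 bin apart gave 2953 runs and 223 such loci. With a joining distance of 5, 20 and 50 kb there were 186, 248 and 299 such loci. The fullest 100 kb window held 16600 bp when windows began 50 kb further on.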
